A study of Mus musculus with 36 samples.

Results

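The interferon response and antigen presentation genes are 40 of the 24421 genes listed in the count tables of the series. They were chosen by symbol, as interferon-induced genes and genes of MHC class I presentation. The question put to them is whether brain tissue that has lost POGZ, a zinc finger protein of heterochromatin, shows an interferon response.

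Cells that detect foreign or misplaced nucleic acid secrete interferons, and the interferon receptors signal through JAK kinases to STAT2, which joins IRF9 in the transcription factor complex ISGF3. ISGF3 binds interferon-stimulated response elements in promoters and switches on antiviral proteins, its own subunits, and the MHC class I molecules and peptide-loading machinery that display peptides to T cells. In resting brain these genes are kept low, and microglia, endothelial cells and the tissues at the brain's borders carry much of their expression.

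The study sequenced poly(A) RNA in bulk from the cerebellum and the hippocampus of adult C57Bl/6 mice. The laboratory animals as a whole were 8 to 16 weeks old, and no age is stated for the sequenced ones alone. Each tissue has 6 libraries per genotype, from 3 males and 3 females: controls are Pogzfl/fl mice without Cre, cKO+/- mice are NesCre/+; Pogzfl/+ and cKO-/- mice are NesCre/+; Pogzfl/fl. Nestin-Cre restricts recombination to the nervous system and removes exons 13 to 19 of Pogz between the loxP sites, so microglia, vessels, meninges and blood are outside its main reach. Because no control carries Cre while both mutants do, effects of Cre and of Pogz loss cannot be told apart where mutants are compared with controls.

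Each library is named by its animal, and the 18 animals gave both tissues. Total counts ran from 21421850 to 32544929 in cerebellum, with a control median of 28634616.5, a cKO+/- median of 28945530.5 and a cKO-/- median of 27640119. In hippocampus they ran from 17609321 to 45544188, with medians of 40579363, 34833512.5 and 30355271.5 in the same order. Levels below are CPM, each library's counts scaled to a common library size, after TMM scaling within the tissue, and changes are log2 fold changes per Pogz allele lost, from a fit on sex and the number of alleles lost. A gene was tested if it exceeded 1 CPM in at least 6 libraries of the tissue, and it is said to rise or fall where its Benjamini-Hochberg adjusted p lay below 0.05. The labelled tissues carried their markers: Gabra6, a granule cell receptor subunit of cerebellum, had a lowest level of 498 CPM there, and Neurod6, a factor of forebrain pyramidal neurons, had a lowest level of 141 CPM in hippocampus and at most 18.8 CPM in cerebellum.

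Several libraries stand apart, and the members' changes without them are given below. The hippocampal library of control Sample_1129 held 49.4 CPM of Gabra6, where the next highest hippocampal library held 1.09 CPM, and 19.2 CPM of the Purkinje cell gene Pcp2, where the next held 0.894 CPM. It also held 4910 CPM summed over the choroid plexus genes, of which Ttr made up 4557 CPM. The hippocampal library of cKO-/- Sample_1160 held 809 CPM summed over 12 microglia genes, against 433 to 577 CPM in controls, and exceeded every control for 41.6% of all tested genes. It was left out of the hippocampal fits, which therefore use 17 libraries. In cerebellum the choroid plexus genes summed to 3172 CPM in cKO+/- Sample_1433, 3038 CPM in cKO-/- Sample_936 and 2363 CPM in cKO+/- Sample_933, and to at most 78.7 CPM in the other 15 libraries. In hippocampus they also reached 4979 CPM in cKO-/- Sample_1385, 2379 CPM in control Sample_1170 and 1125 CPM in cKO-/- Sample_1219, and the effect of leaving out each of these animals is among the ranges given for single animals. Every control has an animal number between those of Sample_1120 and Sample_1219, whereas 7 mutant animals are numbered below or above that range. What set their numbering apart is not stated, and a fit with a term for those 7 animals is given beside the results it changes.

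Pogz itself was lower in every mutant library than in every control library, in both tissues. In cerebellum its lowest, median and highest levels were 89.6, 93.1 and 130 CPM in controls, 66.4, 80.1 and 81.5 CPM in cKO+/-, and 57.0, 65.3 and 74.0 CPM in cKO-/-. In hippocampus they were 89.0, 90.7 and 92.8 CPM in controls and 74.0, 75.6 and 80.2 CPM in cKO+/-, and the 5 fitted cKO-/- libraries held 58.7, 59.7, 60.7, 61.8 and 67.7 CPM. The steps follow the number of alleles lost, and the counts cover the whole gene, exons outside the loxP sites included. Mean log2 levels in cKO-/- differed from controls by -0.59 in cerebellum and -0.56 in hippocampus, each with p = 0.00216 in a 2-sided exact permutation test, the smallest that test can give. Per allele, Pogz fell by 0.30 (SE 0.0457) in cerebellum and by 0.28 (SE 0.0205) in hippocampus, with Benjamini-Hochberg adjusted p of 0.000356 and 1.79e-07 by edgeR's quasi-likelihood F-test.

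Most of the interferon genes were weakly expressed in these brains. In cerebellum 35 of the 40 passed the filter, and Zbp1, Oas1a, Oas3, Oasl1 and Mx1 did not. In hippocampus 33 passed, with Oas2 and Ifi44 failing as well, while 57.4% and 58.7% of all listed genes passed in the respective tissues. Per kilobase of exon, the members that passed had a median of 1.81 CPM in cerebellum, beside 10.02 CPM over all tested genes, and of 1.68 CPM in hippocampus, beside 9.12 CPM. In each tissue 29 of them lay below the median of all tested genes.

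Above the median of tested genes lay B2m, H2-K1, Ifi27 and Ifitm3 in both tissues, and H2-D1 and Stat2 in cerebellum only. B2m, which encodes the light chain shared by all class I molecules, held 115 CPM per kb in cerebellum, above 97.2% of tested genes, and 93.0 CPM per kb in hippocampus, above 95.7%. The class I heavy chain H2-K1 held 17.1 and 16.1 CPM per kb in the same order, and H2-D1 held 30.1 and 6.65 CPM per kb. Among the antiviral genes, Ifi27, a small membrane protein induced by type I interferon, stood highest at 22.4 and 44.6 CPM per kb. The signal transducer Stat2 held 22.4 and 7.59 CPM per kb, and its partner Irf9 held 6.81 and 5.36 CPM per kb, below the median in both. At the other end Oas3, an oligoadenylate synthetase, held 0.012 CPM per kb in cerebellum and 0.020 CPM per kb in hippocampus.

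The interferons themselves were close to absent from the counts. Of 10 interferon ligand genes looked up, 0 passed the filter in either tissue. Summed over the 18 libraries of each tissue, Ifnb1 had 0 counts in cerebellum and 1 in hippocampus, Ifna2 had 1 and 2, Ifne 0 and 4, and Ifnk 3 and 0. Ifng, the type II interferon, had 0 counts in cerebellum and 10 in hippocampus, spread over 7 libraries with at most 3 in any. Ifna1, Ifna4, Ifna5, Ifnl2 and Ifnl3 had 0 counts in both tissues. Levels this low cannot be compared between genotypes.

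By the test's threshold, loss of Pogz was followed by no general rise of the 40 genes. In cerebellum 2 of the 35 tested members (5.71%) passed the test, where 13.7% of all 14027 tested genes did. Both fell, against 6.55% of all genes falling, and 0 rose, against 7.11% of all genes rising. At an unadjusted p under 0.05 there were 4 members (11.4%) and 30.2% of all genes, and these 4 were Stat2, Irf9, Ifi27 and H2-D1. The members' median change was 0.0039, beside 0.00087 over all genes, with 18 of 35 fitted above 0 and a range from -0.29 to 0.37. DESeq2 called 3 members, Stat2, Irf9 and Ifi27, where it called 18.3% of all genes, so by that tool Ifi27 rose.

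In hippocampus 0 of 33 tested members passed the edgeR quasi-likelihood test, where 4.44% of all 14339 genes did. The unadjusted p lay under 0.05 for 3 members (9.09%), Stat2, Ifi27 and Cmpk2, and for 20.1% of all genes, and DESeq2 called 1 member, Stat2, where it called 7.36% of all genes. The median change was -0.0052, beside 0.0017 over all genes, with 16 of 33 fitted above 0 and a range from -0.36, for Ifit3, to 0.23, for Ifi27. With Sample_1160 kept, 0 members passed among 1.72% of all genes, and without Sample_1129 and Sample_1160 Ifi27 alone passed among 3.92% of all genes. With Sample_1160 kept and Sample_1129 left out 0 passed in edgeR, where 1.35% of all genes did. In that fit 3 members had an unadjusted p under 0.05, beside 13.1% of all genes.

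The direction of the hippocampal values depends on Sample_1129. Without it and Sample_1160, 26 of 32 members were fitted above 0, beside 51.4% of all genes, with a median of 0.10 and a range from -0.16 for Ifit3 to 0.33 for Ifi27, and 4 had an unadjusted p under 0.05, beside 18.9% of all genes. For the members described below the changes were then -0.11 for Stat2, -0.01 for Irf9, 0.19 for Isg15, 0.19 for Ddx58, 0.01 for Oasl2, 0.27 for Gbp3, 0.26 for Ifitm3, 0.12 for Parp9, 0.06 for B2m and 0.01 for Lgals3bp, none of which passed in edgeR, and Mx2 failed the filter. In cerebellum without Sample_933, Sample_936 and Sample_1433, 16 of 34 members were fitted above 0, beside 49.8% of all genes, and 1 passed in edgeR, Stat2 at -0.28, where 10.3% of all genes did. The others described below were then at -0.22 for Irf9, -0.30 for Ifit3, -0.19 for Isg15, 0.14 for Ddx58, -0.09 for Oasl2, 0.04 for Gbp3, 0.07 for Ifitm3, -0.04 for Parp9, 0.31 for Ifi27, 0.09 for B2m and -0.09 for H2-D1, and Mx2 failed the filter. In bulk tissue, fewer cells of a type and less RNA per cell cannot be told apart, which holds for every value given here.

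No member had cKO-/- libraries lying wholly on 1 side of the controls. This held for 0 of 35 members in cerebellum, beside 4.58% of all genes, and for 0 of 33 in hippocampus, beside 3.65%. The test of whether the allele effect differs between the tissues called 0 of 33 members in edgeR, with 0 at an unadjusted p under 0.05 and 0 in DESeq2, while 1.49% of all 13587 genes passed in edgeR and 2.48% in DESeq2. With the animal entered as a replicate block, so that the tissues of each animal are paired, 0 members passed as well.

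**Figure D1:**
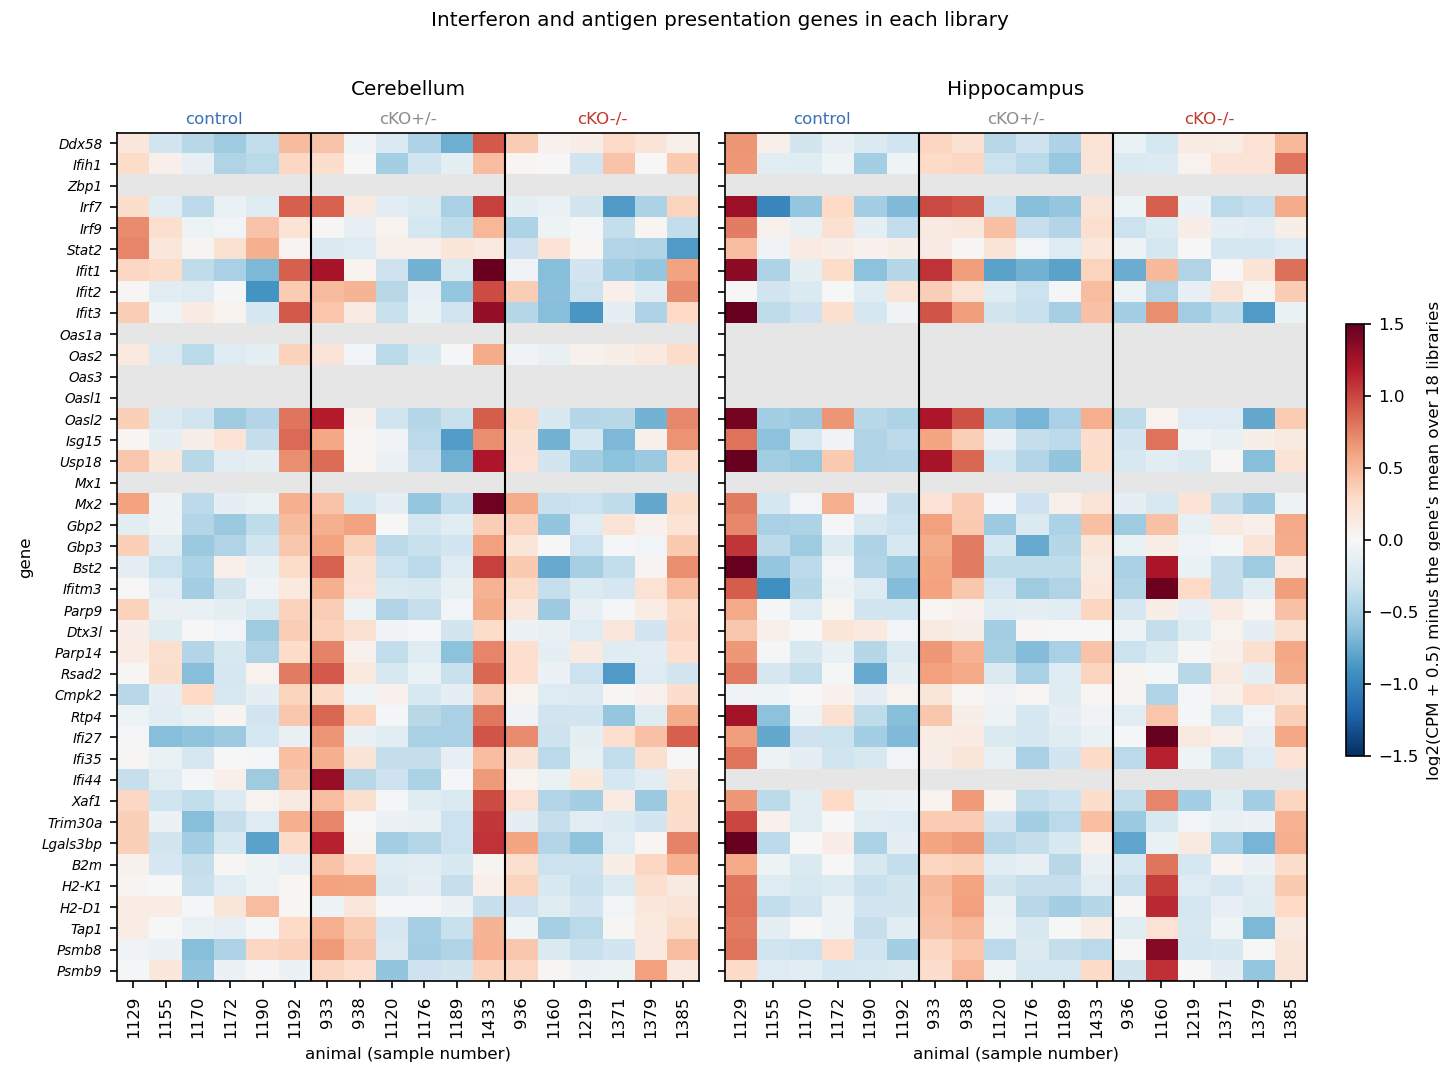
Level of each of the 40 members (down) in each library (across), with 1 panel per tissue, as log2 CPM minus the gene's mean over the 18 libraries of that tissue; grey marks genes that failed the filter. Colour runs down whole columns, such as control Sample_1129 in hippocampus and cKO+/- Sample_1433 in cerebellum.

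**Figure D2:**
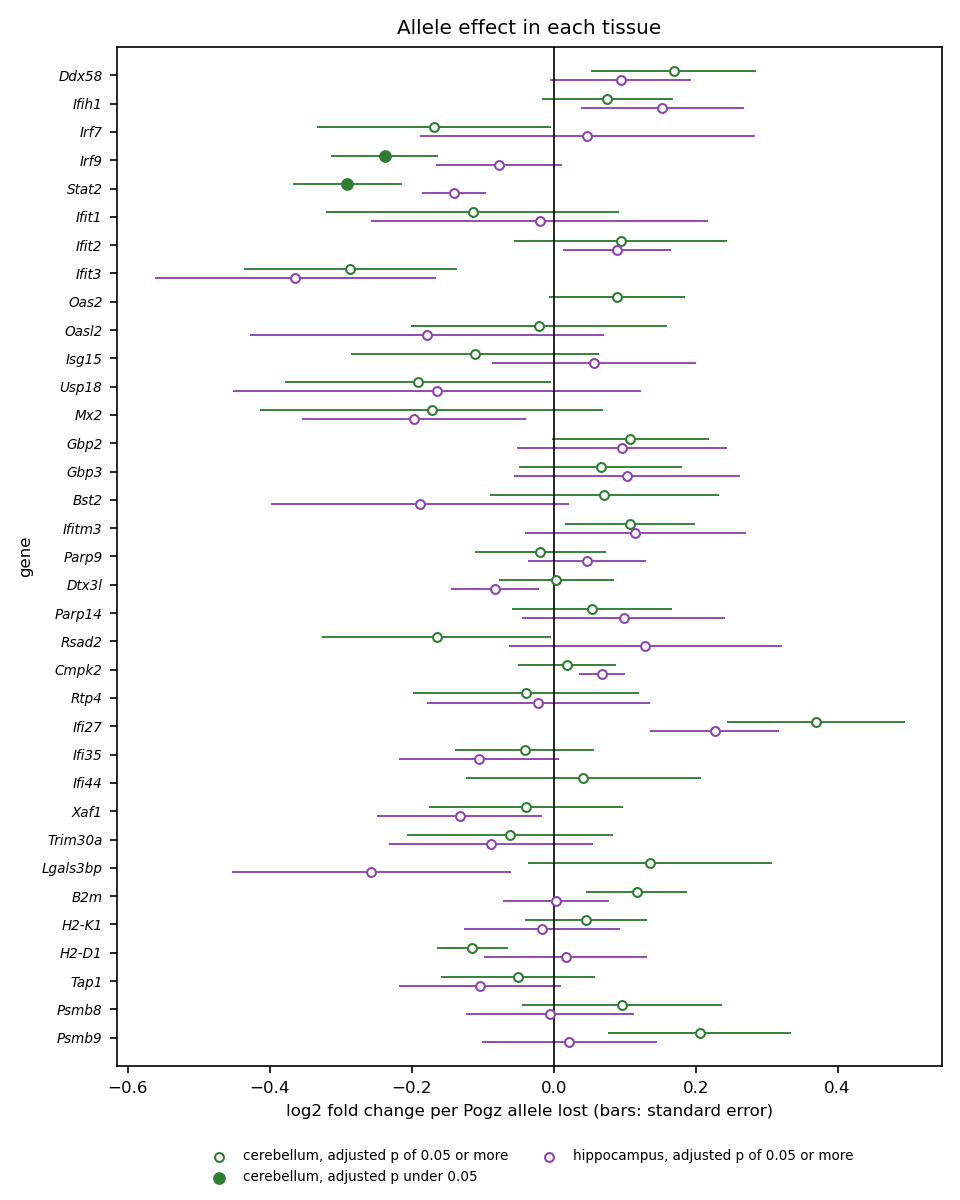
Log2 fold change per Pogz allele lost for each tested member, with its standard error, 35 in cerebellum and 33 in hippocampus; filled points have an adjusted p below 0.05. The filled points are Stat2 and Irf9 in cerebellum, both below 0.

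The 2 members that fell in cerebellum are subunits of the same complex, ISGF3. Stat2 carries the activating domain of that complex. In cerebellum its lowest, median and highest levels were 98.1, 110 and 159 CPM in controls, 82.0, 101 and 109 CPM in cKO+/-, and 52.6, 73.6 and 110 CPM in cKO-/-. In 5 of 6 cKO-/- libraries Stat2 lay below every control, and the exception, Sample_1160, lay just above the control median. Stat2 fell by 0.29 per allele (SE 0.0765, Benjamini-Hochberg adjusted p = 0.0193 by edgeR). The adjusted p was 0.0561 without Sample_1129, the highest control, 0.0544 without Sample_1190, and 0.00385 to 0.0464 with any other animal left out (edgeR, Benjamini-Hochberg). With a term for the 7 animals outside the number range the change was -0.17 (Benjamini-Hochberg adjusted p = 0.288 by edgeR), and within the range alone it was -0.11. The only cKO-/- libraries within the range are those of Sample_1160, the exception named above, and Sample_1219.

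Irf9 supplies the DNA-binding subunit that brings the complex to its response elements. Its cerebellar levels were 16.9, 20.9 and 29.4 CPM in controls, 13.6, 17.2 and 25.4 CPM in cKO+/-, and 12.9, 15.4 and 18.2 CPM in cKO-/-. The cKO-/- libraries lay below the control median in 6 of 6 cases and below every control in 3, so the groups overlap. Irf9 fell by 0.24 per allele (SE 0.0757, Benjamini-Hochberg adjusted p = 0.0426 by edgeR). That call was lost when any of 10 animals was left out: Sample_933, Sample_936, Sample_938, Sample_1120, Sample_1129, Sample_1155, Sample_1190, Sample_1192, Sample_1371 and Sample_1385. The change without Sample_1129 was -0.17 (Benjamini-Hochberg adjusted p = 0.143 by edgeR), and over all single animals left out the adjusted p reached no higher. With the term for animals outside the number range it was -0.26 (Benjamini-Hochberg adjusted p = 0.196 by edgeR).

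In hippocampus neither of the same 2 genes passed the edgeR test. Stat2 held 31.8, 35.4 and 45.6 CPM in controls, 28.9, 34.7 and 37.9 CPM in cKO+/-, and 27.5, 27.5, 28.9, 31.4 and 33.3 CPM in the 5 fitted cKO-/- libraries. Of those 5 libraries 4 lay below every control, and all 5 lay below the control median. The change was -0.14 per allele (SE 0.0446, Benjamini-Hochberg adjusted p = 0.0851 by edgeR), and DESeq2 gave an adjusted p of 0.0384. For Irf9 the levels were 10.8, 13.8 and 24.3 CPM in controls, 10.2, 15.7 and 19.3 CPM in cKO+/-, and 11.2, 12.5, 12.8, 15.0 and 15.2 CPM in cKO-/-. The Irf9 groups overlap throughout, with a change of -0.08. The difference in allele effect, hippocampus minus cerebellum, was 0.14 for Stat2 and 0.15 for Irf9, and neither passed (adjusted p of 0.54 and 0.631, edgeR quasi-likelihood test).

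The promoters of genes on both sides of this circuit are shown to let a reader see the letters that ISGF3 is known to bind. Stat2 and Irf9 are shown as the 2 genes that fell, Ifit3 and Isg15 as interferon-induced antiviral genes, and B2m as the most abundant member. Sequences are from RefSeq on GRCm38.p6, cover 250 bases before to 50 bases after the annotated start, and read 5′ to 3′ on the gene's strand. Capitals mark the core of the interferon-stimulated response element, searched as GAAANNGAAA on either strand, which on the strand shown can also read TTTCNNTTTC. The windows are chr10:128270248-128270547 on the + strand for Stat2, chr14:55603735-55604034 on the + strand for Irf9, chr19:34583279-34583578 on the + strand for Ifit3, chr4:156200769-156201068 on the - strand for Isg15, and chr2:122147437-122147736 on the + strand for B2m. The RefSeq start can differ from the start in the count tables: the Stat2 window ends before the start at 128270576 that those tables give.
Stat2: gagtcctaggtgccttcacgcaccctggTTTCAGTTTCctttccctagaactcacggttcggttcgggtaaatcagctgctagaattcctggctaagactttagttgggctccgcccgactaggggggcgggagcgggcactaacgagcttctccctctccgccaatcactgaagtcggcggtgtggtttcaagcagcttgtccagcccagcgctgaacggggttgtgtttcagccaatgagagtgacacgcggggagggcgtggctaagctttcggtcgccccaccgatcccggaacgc
Irf9: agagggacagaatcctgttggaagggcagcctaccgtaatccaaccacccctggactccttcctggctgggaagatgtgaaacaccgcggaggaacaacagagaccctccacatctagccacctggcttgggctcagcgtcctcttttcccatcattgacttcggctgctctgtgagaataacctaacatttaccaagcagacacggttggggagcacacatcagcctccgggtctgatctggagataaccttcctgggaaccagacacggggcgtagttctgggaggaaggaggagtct
Ifit3: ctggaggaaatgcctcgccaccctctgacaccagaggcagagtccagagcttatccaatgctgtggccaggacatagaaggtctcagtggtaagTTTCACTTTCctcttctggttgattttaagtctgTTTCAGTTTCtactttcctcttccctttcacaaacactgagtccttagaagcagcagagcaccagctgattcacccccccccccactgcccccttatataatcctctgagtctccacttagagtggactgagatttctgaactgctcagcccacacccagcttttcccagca
Isg15: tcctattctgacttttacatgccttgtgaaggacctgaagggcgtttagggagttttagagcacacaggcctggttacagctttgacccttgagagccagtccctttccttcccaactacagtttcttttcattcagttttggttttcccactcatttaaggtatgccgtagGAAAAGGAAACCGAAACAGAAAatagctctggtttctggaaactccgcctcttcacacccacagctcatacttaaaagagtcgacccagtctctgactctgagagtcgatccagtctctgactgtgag
B2m: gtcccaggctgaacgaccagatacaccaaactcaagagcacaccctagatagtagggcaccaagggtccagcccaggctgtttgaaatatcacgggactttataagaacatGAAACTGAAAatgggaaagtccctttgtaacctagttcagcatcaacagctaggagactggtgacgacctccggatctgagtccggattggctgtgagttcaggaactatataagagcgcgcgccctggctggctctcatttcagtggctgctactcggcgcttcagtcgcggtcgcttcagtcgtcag

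The core was present in the Stat2 and B2m windows, at 2 places in Ifit3 and in 3 overlapping copies in Isg15. The Irf9 window has no such letters, which says only that they are not within these 300 bases. Promoter windows were available for 31 of the 40 members, and 15 of those members (48.4%) held the core, beside 3.99% of 27025 genes. Of 35 other interferon-induced genes with a window, 15 (42.9%) held it. The gamma-activated sequence TTCNNNGAA was in 6 of the 31 members (19.4%) and in 9.55% of all genes. Matches are a description of the letters and not of binding.

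Ifi27 was the member with the largest positive change in both tissues. In cerebellum its levels were 13.99, 16.6 and 21.6 CPM in controls, 15.5, 19.96 and 42.7 CPM in cKO+/-, and 17.59, 28.2 and 41.5 CPM in cKO-/-. In hippocampus they were 24.9, 31.8 and 66.3 CPM in controls and 35.9, 38.7 and 46.4 CPM in cKO+/-, and the 5 fitted cKO-/- libraries held 39.1, 41.8, 44.9, 47.0 and 64.1 CPM. The highest hippocampal control is Sample_1129, and every cKO+/- and cKO-/- library exceeds the other controls, whose highest is 34.2 CPM. With Sample_1129 counted the groups overlap, and the share of all genes that separate without it was not computed. Sample_1160, outside the fit, held 151 CPM.

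The cerebellar change of Ifi27 was 0.37 per allele (SE 0.125, Benjamini-Hochberg adjusted p = 0.0545 by edgeR), with 4 of 6 cKO-/- libraries above every control. Leaving out Sample_1160, Sample_1219 or Sample_1433 gave 0.42, 0.43 and 0.37 with adjusted p of 0.0276, 0.0267 and 0.0309 (same edgeR test). In hippocampus the change was 0.23 per allele (SE 0.0908, Benjamini-Hochberg adjusted p = 0.17 by edgeR), and 5 of 5 cKO-/- libraries lay above the control median. With Sample_1160 kept the hippocampal change was 0.41 (SE 0.131, Benjamini-Hochberg adjusted p = 0.139 by edgeR). Without Sample_1129 and Sample_1160 it rose by 0.33 (SE 0.0609, Benjamini-Hochberg adjusted p = 0.00478 by edgeR). With a term for the 7 animals outside the number range, the cerebellar change was 0.05 (Benjamini-Hochberg adjusted p = 0.839 by edgeR). With that term and without Sample_1129 the hippocampal change was 0.26 (Benjamini-Hochberg adjusted p = 0.195 by edgeR). Ifi27 shares 515 exon bases with Ifi27l2a on the opposite strand, which averaged 0.968 CPM in cerebellum, and whether the counts respect strand is not stated.

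**Figure D3:**
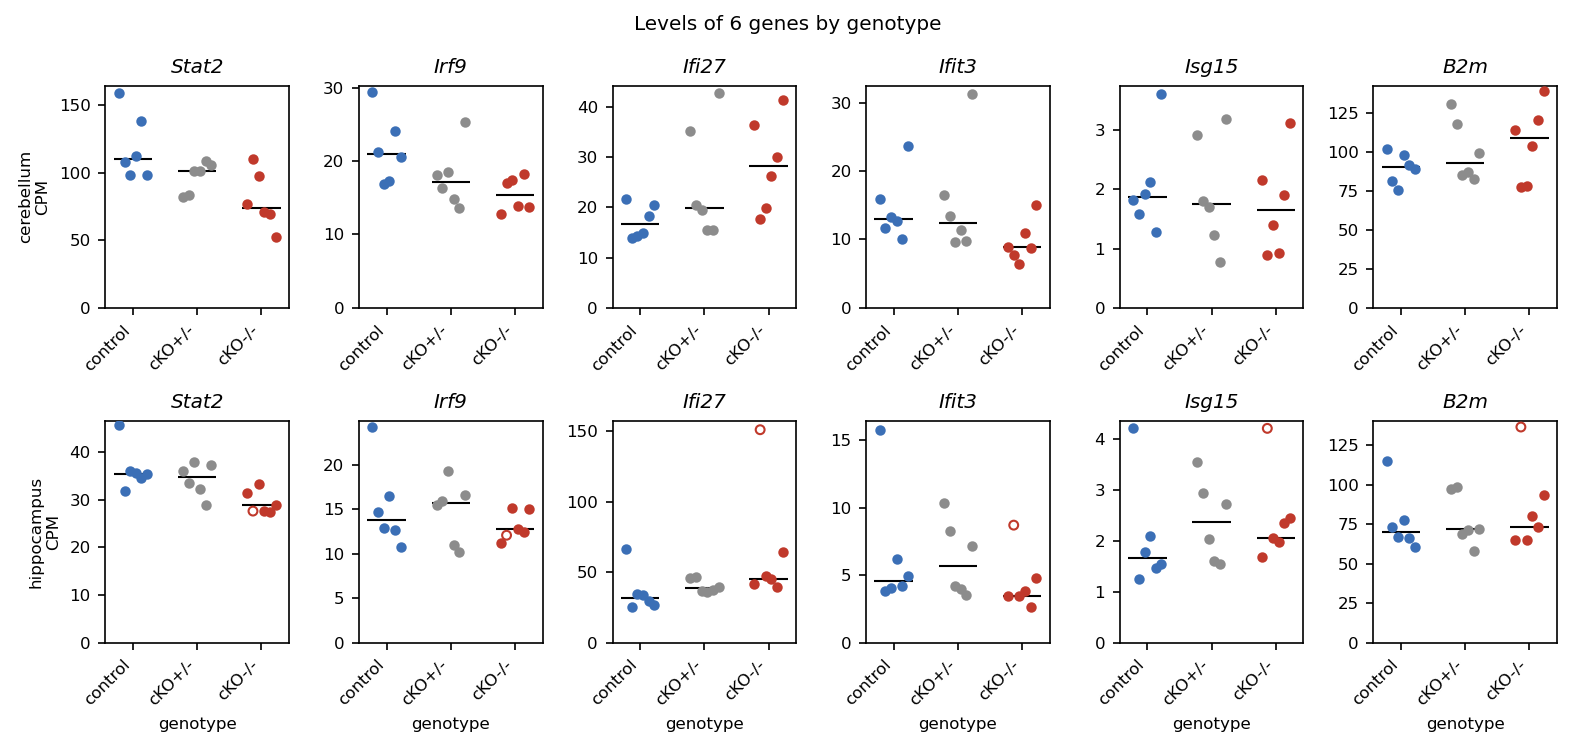
CPM of Stat2, Irf9, Ifi27, Ifit3, Isg15 and B2m in each library, by tissue and genotype, with a line at the group median; the open circle is hippocampal Sample_1160, which is outside the fit and the median. Stat2 in cerebellum steps down from control to cKO-/-, and Ifi27 in hippocampus shows a single high control at 66.3 CPM, Sample_1129.

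Among the antiviral effectors and sensors the genotypes overlapped. Ifit3 encodes a protein that binds foreign RNA together with IFIT1. In cerebellum it held 10.1, 13.03 and 23.7 CPM in controls, 9.59, 12.4 and 31.3 CPM in cKO+/-, and 6.43, 8.87 and 15.1 CPM in cKO-/-. In hippocampus it held 3.82, 4.58 and 15.8 CPM in controls, 3.50, 5.68 and 10.3 CPM in cKO+/-, and 2.64, 3.45, 3.46, 3.83 and 4.76 CPM in cKO-/-. The cKO-/- libraries lay below every control in 4 of 6 and 3 of 5 cases, and the highest library was cKO+/- Sample_1433 in cerebellum and control Sample_1129 in hippocampus. Its changes were -0.29 (SE 0.150, adjusted p = 0.204) and -0.36 (SE 0.198, adjusted p = 0.314), short of the threshold in the edgeR quasi-likelihood test. Without Sample_1129 the hippocampal change was -0.16. With the term for animals outside the number range it fell by 0.59 in cerebellum (Benjamini-Hochberg adjusted p = 0.0255 by edgeR), and Ifit3 and Tap1 were then the 2 members called among 2.2% of all genes. In 55.2% of its 43-base windows Ifit3 has the same letters as another gene, I830012O16Rik, so reads may be divided between them.

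Isg15 encodes a ubiquitin-like protein that is attached to newly made proteins during infection. Its cerebellar levels were 1.28, 1.87 and 3.61 CPM in controls, 0.778, 1.76 and 3.18 CPM in cKO+/-, and 0.893, 1.65 and 3.13 CPM in cKO-/-. Hippocampal Isg15 was 1.25, 1.66 and 4.21 CPM in controls, 1.53, 2.38 and 3.55 CPM in cKO+/-, and 1.69, 1.98, 2.06, 2.36 and 2.44 CPM in cKO-/-. High libraries occur in each genotype, with changes of -0.11 and 0.06 in the same order. Ddx58 encodes RIG-I, a sensor of viral RNA. It held 3.86, 4.55 and 8.28 CPM in control cerebellum, 3.30, 5.28 and 11.51 CPM in cKO+/-, and 6.12, 6.51 and 7.77 CPM in cKO-/-. In hippocampus it held 4.93, 5.45 and 10.1 CPM in controls, 4.36, 6.04 and 7.87 CPM in cKO+/-, and 5.76, 6.74, 6.81, 7.30 and 8.96 CPM in cKO-/-. All 6 cerebellar and the 5 fitted hippocampal cKO-/- values lay above the control median and within the control range, with changes of 0.17 and 0.09 that did not pass, and hippocampal Sample_1160, outside the fit, held 5.06 CPM, below the control median.

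Oasl2 belongs to the oligoadenylate synthetase family. Cerebellar levels of Oasl2 were 2.73, 3.39 and 7.59 CPM in controls, 2.97, 3.83 and 10.05 CPM in cKO+/-, and 2.35, 3.23 and 7.17 CPM in cKO-/-. In hippocampus Oasl2 held 2.42, 2.64 and 11.0 CPM in controls, 2.13, 4.13 and 9.37 CPM in cKO+/-, and 2.01, 2.77, 3.22, 3.23 and 5.06 CPM in cKO-/-. In each group the highest library stands well above the median, and the changes were -0.02 and -0.18, the latter 0.01 without Sample_1129. Mx2 encodes a dynamin-like antiviral GTPase. Its levels were 0.453, 0.680 and 1.40 CPM in control cerebellum, 0.341, 0.593 and 2.94 CPM in cKO+/-, and 0.238, 0.495 and 1.35 CPM in cKO-/-. Hippocampal Mx2 was 0.536, 0.772 and 1.76 CPM in controls, 0.559, 0.949 and 1.22 CPM in cKO+/-, and 0.402, 0.525, 0.692, 0.750 and 1.01 CPM in cKO-/-. These overlap throughout, with changes of -0.17 and -0.20.

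Gbp3, a guanylate-binding protein of cell-autonomous defence, held 4.19, 5.38 and 8.62 CPM in control cerebellum, 4.76, 6.68 and 10.1 CPM in cKO+/-, and 4.996, 6.29 and 8.56 CPM in cKO-/-. In hippocampus Gbp3 held 3.18, 3.79 and 10.7 CPM in controls, 2.66, 4.74 and 8.63 CPM in cKO+/-, and 4.46, 4.64, 4.76, 5.57 and 7.31 CPM in cKO-/-. Its changes were 0.07 and 0.10, and the genotypes overlap. Ifitm3 blocks the entry of enveloped viruses at endosomal membranes. It held 6.23, 8.47 and 10.2 CPM in control cerebellum, 7.68, 9.61 and 13.5 CPM in cKO+/-, and 7.14, 9.35 and 12.9 CPM in cKO-/-. Hippocampal Ifitm3 was 3.56, 5.74 and 13.99 CPM in controls, 4.84, 7.02 and 11.2 CPM in cKO+/-, and 5.12, 5.57, 6.32, 9.01 and 11.4 CPM in cKO-/-. The ranges overlap, with changes of 0.11 and 0.12, and Sample_1160 held 20.8 CPM. Parp9 pairs with the ubiquitin ligase DTX3L. Cerebellar Parp9 was 4.22, 4.61 and 6.49 CPM in controls, 3.51, 4.77 and 7.56 CPM in cKO+/-, and 3.26, 5.16 and 6.22 CPM in cKO-/-. In hippocampus Parp9 held 3.39, 3.93 and 6.58 CPM in controls, 3.75, 4.10 and 5.50 CPM in cKO+/-, and 3.52, 3.88, 4.37, 4.72 and 6.00 CPM in cKO-/-. Its genotypes overlap in both tissues, with changes of -0.02 and 0.05.

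The remaining members outside MHC class I are 18 in cerebellum and 16 in hippocampus, and 0 of them passed in edgeR or in DESeq2 in either tissue. Their changes ran from -0.19, for the ISG15 protease Usp18, to 0.14, for Lgals3bp, in cerebellum, with 0 at an unadjusted p under 0.05. In hippocampus they ran from -0.26, for Lgals3bp, which was at 0.01 without Sample_1129, to 0.15, for the RNA sensor Ifih1, with 1 at an unadjusted p under 0.05, Cmpk2 at 0.07. Irf7, the factor that amplifies interferon production, had changes of -0.17 in cerebellum and 0.05 in hippocampus.

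Of the 6 genes of MHC class I and peptide loading, 0 passed the edgeR test in either tissue and 0 passed in DESeq2, with 1 at an unadjusted p under 0.05 in cerebellum, H2-D1, and 0 in hippocampus. B2m held 75.7, 90.4 and 101 CPM in control cerebellum, 82.7, 93.0 and 130 CPM in cKO+/-, and 77.3, 109 and 139 CPM in cKO-/-. In hippocampus B2m held 60.3, 70.0 and 115 CPM in controls, 58.1, 71.6 and 98.5 CPM in cKO+/-, and 64.7, 64.8, 72.9, 80.0 and 93.4 CPM in cKO-/-. In cerebellum 4 of 6 cKO-/- libraries exceeded every control, and in hippocampus the highest fitted library was control Sample_1129, with Sample_1160 at 136 CPM outside the fit. The changes of B2m were 0.12 and 0.00, and with the term for animals outside the number range the cerebellar change was -0.08, so its sign depends on that term.

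H2-D1 held 51.1, 55.8 and 71.7 CPM in control cerebellum, 40.6, 49.8 and 58.1 CPM in cKO+/-, and 41.6, 48.0 and 59.1 CPM in cKO-/-. In cKO+/- and in cKO-/- 4 of 6 libraries lay below every control, with a change of -0.11 (SE 0.0502, Benjamini-Hochberg adjusted p = 0.13 by edgeR). The other 4 are H2-K1, the peptide transporter subunit Tap1 and the immunoproteasome subunits Psmb8 and Psmb9, with changes from -0.05 to 0.21 in cerebellum and from -0.10 to 0.02 in hippocampus.

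Other genes of the pathway were looked up by lists of sensors and adaptors, receptors and JAK-STAT signalling, further interferon-induced genes, and further antigen presentation genes. In cerebellum 7 of 82 tested genes of these lists (8.54%) passed the edgeR test, beside 13.7% of all genes, with 4 lower and 3 higher. The kinase Tyk2, which sits on the type I interferon receptor, held 25.6, 29.6 and 39.0 CPM in controls, 23.4, 26.6 and 29.0 CPM in cKO+/-, and 18.2, 22.4 and 25.2 CPM in cKO-/-, and it fell by 0.27 per allele. All 6 cKO-/- libraries lay below every control for Tyk2. Irf3, which starts interferon transcription after sensing, fell by 0.24, from a control median of 40.01 CPM to 31.0 CPM in cKO-/-. Samhd1, which breaks down the building blocks of DNA, fell by 0.14, and the DNA exonuclease Trex1 fell by 0.20. In the other direction Ifitm1, a membrane protein that restricts virus entry, rose by 0.44 and Tlr3, a sensor of double-stranded RNA, by 0.26.

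Tyk2 was called in all 18 fits that leave out 1 animal. Irf3 lost its call without Sample_1129, Sample_1190, Sample_1371 or Sample_1385, and Samhd1 without Sample_1129, Sample_1371, Sample_1379 or Sample_1385. Ifitm1 lost it without Sample_1155, Sample_1170, Sample_1172, Sample_1190, Sample_1192 or Sample_1385, Tlr3 without Sample_936, Sample_1155, Sample_1172, Sample_1190, Sample_1192 or Sample_1385, and Trex1 in 11 of the 18 fits. The count of pathway genes called ran from 2 to 9 over those fits, was 6 of 81 without Sample_933, Sample_936 and Sample_1433, and was 1 with the term for animals outside the number range, Ifit3b, a close relative of Ifit3. Ifit3 was called under that term as well, and whether both calls rest on the same reads was not tested.

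By list, the cerebellar counts were 2 of 11 sensors and adaptors, 1 of 18 receptor and JAK-STAT genes, 4 of 33 other interferon-induced genes, and 0 of 20 other antigen presentation genes in edgeR, the last with 3 at an unadjusted p under 0.05 and 0 in DESeq2. In hippocampus 0 of 83 pathway genes passed in edgeR, beside 4.44% of all genes, with 11 at an unadjusted p under 0.05, beside 20.1%, and DESeq2 called 3, Ifitm1, Slfn2 and Stat3, beside 7.36%. With 1 animal left out the edgeR count ran from 0 to 3: Ciita, Slfn2 and Stat3 without Sample_1120, Ifitm1 and Tyk2 without Sample_936, Slfn2 and Stat3 without Sample_1385, and Il10rb without Sample_1129. The tissue difference in allele effect called 0 of 80 in edgeR, beside 1.49% of all genes, with 9 at an unadjusted p under 0.05, beside 13.6%, and DESeq2 called 2, Samhd1 among them, beside 2.48%. By edgeR the cerebellar calls are thus not shown to differ from hippocampus.

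Genes that mark other cells changed in the cerebellum as well. Of 12 microglia genes 5 rose per allele, among them P2ry12 by 0.27, Cx3cr1 by 0.25, Siglech by 0.25 and Itgam by 0.28. The summed level of the 12 was 164 to 179 CPM in controls, 174 to 279 CPM in cKO+/- and 162 to 302 CPM in cKO-/-. The highest sums were in cKO-/- Sample_1385 and cKO+/- Sample_1433, and the lowest cKO-/- sum was in Sample_1160, which was also the cKO-/- library with the highest Stat2. Of 8 meningeal genes 5 rose, among them Col1a2 by 0.45 and Igf2 by 0.58, with sums of 213 to 293 CPM in controls, 282 to 450 CPM in cKO+/- and 291 to 558 CPM in cKO-/-. Of 6 astrocyte genes 3 rose, Gfap by 0.52, Aqp4 by 0.33 and Gja1 by 0.17, and of 4 tested genes of border macrophages 1 rose, Mrc1 by 0.32. With the term for animals outside the number range Aqp4 alone of these 4 was called, and without Sample_933, Sample_936 and Sample_1433 the 3 astrocyte genes were. With 1 animal left out the astrocyte count stayed at 3, and Mrc1 was called in 6 of 18 fits. Of 10 endothelial genes Ly6c1 and Ly6a fell, by 0.30 and 0.26. Over the fits that leave out 1 animal the microglia count ran from 1 to 8 of 12, the endothelial count from 0, without Sample_1190, to 2, and the meningeal count from 4 to 6 of 8. The microglia count was 1 without Sample_1385, and with the term for animals outside the number range it was 0 in edgeR, beside 6 in DESeq2 without that term. In hippocampus 0 of 12 microglia genes passed in edgeR, with 0 at an unadjusted p under 0.05 and 0 in DESeq2, and 4 of 10 endothelial genes rose, Tek by 0.33 with Cdh5, Kdr and Pecam1, a count that ran from 0 to 5 with 1 animal left out. Aqp4 rose there by 0.35, as 1 of 6 astrocyte genes, and Lum by 0.46, as 1 of 8 meningeal genes. Aqp4 was called in all 17 fits that leave out 1 animal and Lum in 10 of them, and the meningeal count ran from 0 to 3. No listed gene of microglia, endothelium or meninges was at 0, and the part of these cells in the members' changes was not tested.

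Within a genotype the members tested varied together from animal to animal. After the genotype means were taken out, the median standard deviation of log2 level was 0.40 over members and 0.18 over all genes in cerebellum, and 0.40 and 0.14 in hippocampus. Spearman's rho between members had a median of 0.64 over 595 pairs in 18 cerebellar libraries, beside -0.01 over pairs of all genes. In 17 hippocampal libraries it had a median of 0.68 over 528 pairs, beside 0.00. The shares of pairs above 0 were 90.1% and 99.6% for members. Without Sample_933, Sample_936 and Sample_1433 the cerebellar median was 0.48, and without Sample_1129 the hippocampal median was 0.64. The exceptions in cerebellum were Stat2, with rho of -0.38 to the mean of the other members, and H2-D1, with -0.11, and in hippocampus every member lay above 0. With genotype means taken out, the members' mean was set beside the summed markers of other cells. In the 18 cerebellar libraries, and in brackets without Sample_933, Sample_936 and Sample_1433, rho was 0.92 (0.74) for microglia, 0.80 (0.68) for meninges, 0.73 (0.69) for leukocytes of blood, 0.70 (0.48) for choroid plexus, 0.69 (0.66) for red blood cells, 0.59 (0.36) for oligodendrocytes, 0.37 (0.50) for border macrophages, -0.07 (0.29) for astrocytes, -0.16 (-0.40) for endothelium and -0.71 (-0.81) for neurons. For the markers of the tissues themselves it was -0.68 (-0.60) for cerebellum and -0.11 (0.17) for hippocampus. In the 17 hippocampal libraries, and in brackets without Sample_1129, rho was 0.60 (0.52) for meninges, 0.51 (0.40) for endothelium, 0.48 (0.48) for leukocytes of blood, 0.44 (0.52) for red blood cells, 0.41 (0.39) for border macrophages, 0.30 (0.20) for microglia, 0.28 (0.25) for choroid plexus, 0.18 (0.11) for astrocytes, -0.03 (0.11) for oligodendrocytes and -0.33 (-0.18) for neurons. There it was 0.50 (0.21) for cerebellar and -0.51 (-0.31) for hippocampal markers. The lists of leukocytes and red blood cells are each 1 tested gene, Ptprc and Alas2. Between control tissues Ptprc was higher in hippocampus by 0.97, the direction of the microglia genes, so its value does not set blood cells apart from microglia. The part of these cells, and of dissection, in the members' variation was not tested. The members were chosen as genes that interferon induces together, and these correlations are a description over libraries that share dissection and depth.

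A few animals carried the high values in each group. In control cerebellum Sample_1192 was highest for 25 of 35 members, with a median ratio to its group's median of 1.42. In cKO+/- cerebellum Sample_1433 was highest for 19 members and Sample_933 for 13, with ratios of 1.66 and 1.49, and in cKO-/- Sample_1385 was highest for 24, with 1.36. Hippocampal control Sample_1129 was highest for 31 of 33 members, with a ratio of 2.20. In hippocampal cKO+/- Sample_933 led for 14 and Sample_938 for 13, and among the 5 fitted cKO-/- libraries Sample_1385 led for 29, with 1.41.

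An animal high in 1 tissue tended to be high in the other. Over 17 animals with genotype means taken out, rho between the cerebellar and hippocampal level had a median of 0.52 over 33 members, all 33 above 0, beside 0.15 over all 13587 genes tested in both tissues, of which 68.3% lay above 0. The lowest was Psmb8 at 0.0809 and the highest Gbp3 at 0.762, followed by the RNA-binding antiviral gene Ifit2 at 0.760, the apoptosis factor Xaf1 at 0.755, and B2m at 0.716. Without Sample_1129 the median was 0.51 over 16 animals, and without Sample_1129, Sample_933, Sample_936 and Sample_1433 it was 0.34 over 13 animals, with all 33 members above 0 each time. The tissues of an animal share its dissection and handling, so these are not independent measurements.

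**Figure D4:**
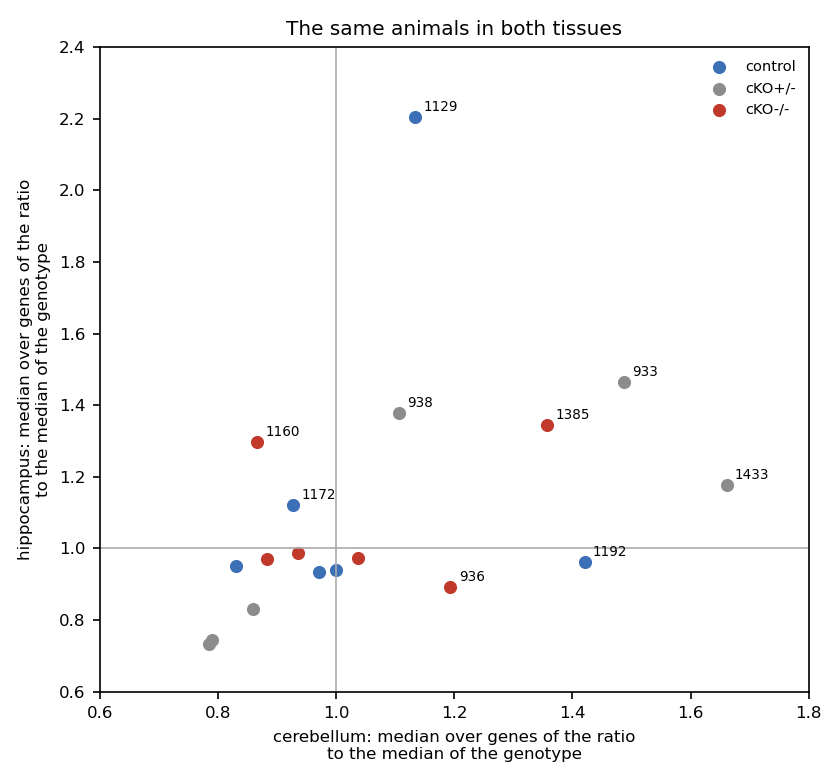
Each point is an animal: the median over members of its level relative to the median of its genotype, in cerebellum (across) and in hippocampus (up), with all 6 libraries of each group in the genotype median. Sample_1433 and Sample_933 lie highest on the cerebellar axis, Sample_1129 highest on the hippocampal axis, and Sample_1176 and Sample_1189 low on both.

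Outside all lists, the genes whose levels went most closely with the mean of the members were ranked by Spearman's rho. In cerebellum the first was the complement gene C4b, with rho of 0.936 over 18 libraries and 13840 genes, then Rasal3 at 0.926, the MHC class I-like iron regulator Hfe at 0.909, the macrophage receptor Adgre1 at 0.903 and the checkpoint ligand Cd274 at 0.901. In hippocampus the first were the RNA helicase Ddx60 at 0.917, Trim12a at 0.868, the receptor Tlr2 at 0.860, C4b at 0.850 and Foxp2 at 0.836, over 17 libraries and 14154 genes. C4b held 20.7, 27.6 and 55.2 CPM in control hippocampus, 15.0, 23.02 and 33.6 CPM in cKO+/-, and at lowest 13.1, in the median 14.1 and at highest 18.7 CPM in the 5 fitted cKO-/- libraries. These 5 all lay below every control, where 3.65% of all tested hippocampal genes had the fitted cKO-/- libraries wholly on 1 side of the controls. C4b fell by 0.53 per allele (Benjamini-Hochberg adjusted p = 0.0229 by edgeR). The call was lost without Sample_1192, Sample_1371 or Sample_1379. Sample_1160, outside the fit, held 24.9 CPM of C4b, above the lowest control, and with it kept the change was -0.47 (Benjamini-Hochberg adjusted p = 0.0762 by edgeR). In cerebellum its change was 0.12 and did not pass.

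Sex accounted for no call in either tissue. In cerebellum 0 of 35 members passed the edgeR test for sex, with 2 at an unadjusted p under 0.05, where 0.0499% of all genes passed, and 0 passed in DESeq2, where 0.121% of all genes did. In hippocampus 0 of 33 passed, with 3 at an unadjusted p under 0.05, where 0.907% of all genes passed, and 0 passed in DESeq2, where 4.33% of all genes did. The fitted values leaned in opposite directions, 32 of 35 above 0 in males in cerebellum with a median of 0.25, and 32 of 33 below 0 in hippocampus with a median of -0.28. Without the males Sample_933, Sample_936 and Sample_1433, 15 of 35 were above 0 in cerebellum, with a median of -0.04, beside -0.006 over all genes. In that fit 0 passed in edgeR, where 0.0356% of all genes passed. At an unadjusted p under 0.05 there were 0, beside 2.05% of all genes. Without the female Sample_1129, 30 of 33 stayed below 0 in hippocampus with a median of -0.12, beside -0.02 over all genes. There 0 passed in edgeR, where 0.404% of all genes passed. At an unadjusted p under 0.05 there were again 0, beside 14.3% of all genes. DESeq2 called 0 members without these libraries, where it called 0.0713% of all genes in cerebellum and 3.13% in hippocampus.

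Between the tissues themselves, 6 control animals were compared, hippocampus minus cerebellum, and counts of animals in a direction use levels scaled over both tissues together. Of 33 tested members 8 passed (24.2%), where 71.9% of all 14224 genes did, and the members' median absolute change of 0.37 lay beside 0.43 over all genes. Lower in hippocampus were 5 members, beside 36.7% of all genes, and higher were 3, beside 35.2%. With the animal as a replicate block, pairing the tissues of each animal, 13 passed where 73.0% of all genes did. Without Sample_1129, the control whose hippocampal library held cerebellar and choroid plexus transcripts, 16 of 31 passed, 3 higher and 13 lower, where 70.9% of all genes did. Of the 8 members the differences were then -2.58 for H2-D1, -1.57 for Stat2, -1.52 for Ifit3, -0.45 for Irf9, 0.97 for Ifi27, 0.86 for Lgals3bp and 0.47 for Cmpk2, all called, and Oas2 failed the filter.

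The widest gap was in MHC class I. H2-D1 ranged from 51.1 to 71.7 CPM in control cerebellum and held 8.30, 8.88 and 19.6 CPM in control hippocampus, so that the tissues do not overlap. The log2 difference was -2.35 (SE 0.19, Benjamini-Hochberg adjusted p = 8.71e-08 by edgeR), in 6 of 6 animals. Its partner B2m differed by -0.15 and H2-K1 by 0.01, neither past the test, although B2m passed without Sample_1129 at -0.24. In 17.1% of its 43-base windows H2-D1 has the same letters as other genes, and it shares 1060 exon bases with H2-L on the same strand, so its level depends on how such reads were assigned.

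Stat2 was lower in hippocampus, with a difference of -1.62 (SE 0.12, Benjamini-Hochberg adjusted p = 3.54e-08 by edgeR), in 6 of 6 animals and without overlap of the tissues. Ifit3 was lower as well, at -1.15 (SE 0.335, Benjamini-Hochberg adjusted p = 0.00725 by edgeR) in 5 of 6 animals, with the hippocampal library of Sample_1129 at 15.8 CPM inside the cerebellar range. Oas2, another oligoadenylate synthetase, held 1.21, 1.53 and 2.37 CPM in control cerebellum and 0.369, 0.617 and 1.81 CPM in control hippocampus, a difference of -1.04 (SE 0.319, Benjamini-Hochberg adjusted p = 0.0101 by edgeR) in 6 of 6 animals. Without Sample_1192 it was tested and not called. Irf9 was lower by less, at -0.42 (SE 0.181, Benjamini-Hochberg adjusted p = 0.0498 by edgeR) in 5 of 6 animals, and that call was lost without Sample_1155, Sample_1190 or Sample_1192, with values of -0.41, -0.32 and -0.33, and under relative log expression scaling, with -0.41.

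Higher in hippocampus were Ifi27, by 1.11 (SE 0.204, Benjamini-Hochberg adjusted p = 0.000252 by edgeR) in 6 of 6 animals, and Lgals3bp, a secreted galectin ligand, by 1.24 (SE 0.378, Benjamini-Hochberg adjusted p = 0.00954 by edgeR) in 6 of 6 animals. Lgals3bp ran from 5.76 to 13.5 CPM in control cerebellum and from 11.7 to 65.9 CPM in control hippocampus, the last in Sample_1129. The mitochondrial nucleotide kinase Cmpk2 held 12.01, 14.6 and 20.6 CPM in control cerebellum and 19.8, 21.4 and 22.8 CPM in control hippocampus, a change of 0.52 (SE 0.125, Benjamini-Hochberg adjusted p = 0.002 by edgeR) in 6 of 6 animals. Without Sample_1192, the cerebellar control with the highest member levels, 7 members of 33 were called higher and 3 lower, Ddx58 among the former at 0.56. That fit called 8914 of all 13618 tested genes.

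**Figure D5:**
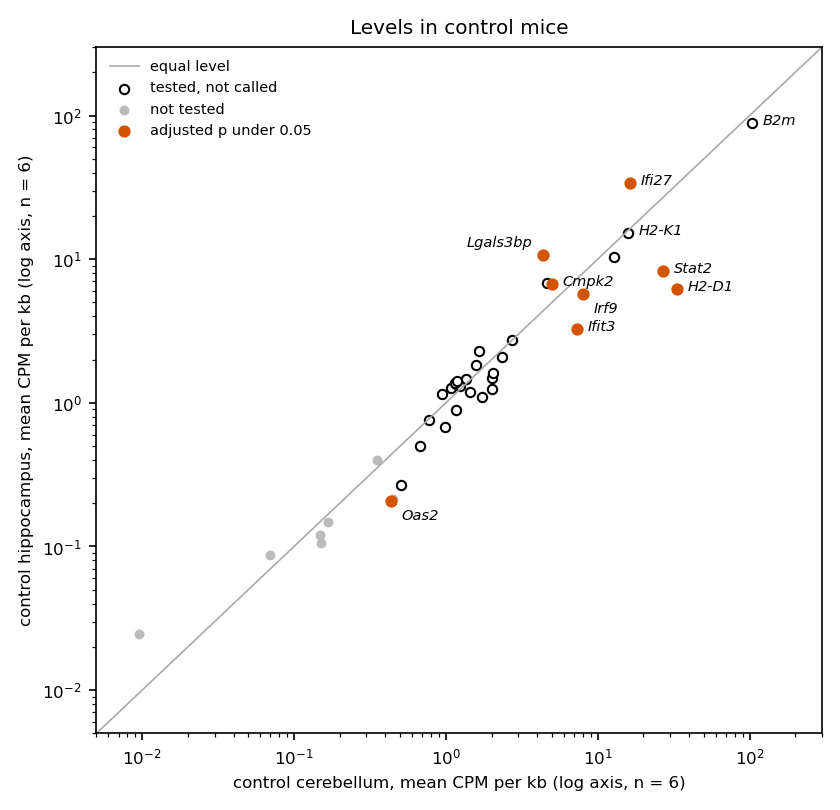
Mean CPM per kb of each member in control cerebellum (across) and control hippocampus (up), on log axes, with orange for the 8 members called between the tissues. H2-D1 and Stat2 lie far below the line of equality, and Ifi27 and Lgals3bp above it.

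Of 82 tested genes of the other pathway lists, 47 (57.3%) passed between the control tissues, beside 71.9% of all genes, with 23 higher and 24 lower in hippocampus. The higher ones include the DNA sensors Tlr9 at 2.27 and Mb21d1 at 2.20, the peptide-exchange chaperone H2-DMa at 2.26, and the microglial factor Irf8 at 1.68. The lower ones include the RNA sensor Dhx58 at -1.64 and Slfn5 at -1.18, and DESeq2 called 49, beside 72.4% of all genes. Without Sample_1129 edgeR called 55 of 79, beside 70.9% of all genes, and Tlr9 was not among them. Microglia genes went 1 way, where the pathway genes went both ways. Of the microglia genes 12 of 12 were higher in hippocampus, Cx3cr1 by 1.89, and their sums were 433 to 577 CPM in control hippocampus beside 164 to 179 CPM in control cerebellum, with no gene at 0. Endothelial genes went the other way, 9 of 10 lower in hippocampus. So did border macrophage genes, 4 of 4 lower, F13a1 by 1.06, Lyve1 by 1.02, Mrc1 by 0.94 and Cd163 by 0.83, and meningeal genes, 4 of 8 lower, Slc6a13 by 1.63 and Col1a2 by 1.47 among them. Of 5 choroid plexus genes Ttr was higher by 10.41 (SE 2.397) and Kl by 5.12. Without Sample_1129 the microglia, endothelial and border macrophage counts were the same, 6 of 8 meningeal genes were lower, and Ttr was not among the calls. Their part in the members' differences was not tested.

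The members lie on many chromosomes, so the set is not a single locus. On GRCm38, Stat2 is at chr10:128270576-128292849, Irf9 at chr14:55603985-55610030, Ifit3 at chr19:34583529-34588982, Isg15 at chr4:156199424-156200818, B2m at chr2:122147687-122153082 and Ifi27 at chr12:103434189-103440245, while Pogz is at chr3:94837567-94883567. H2-K1, H2-D1, Tap1, Psmb8 and Psmb9 share chromosome 17, in the MHC.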

How the data were processed

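Deposited gene counts, made by the authors with STAR v250a, were used as counts for 36 libraries. The submitters name mm9, but the coordinates in the tables match GRCm38. Strand and the handling of multi-mapping reads are not stated. Genes above 1 CPM in at least 6 libraries of a tissue were tested with edgeR 4.0.16 in R 4.3.3 (TMM, quasi-likelihood F-test, legacy=TRUE) on sex and alleles lost, using Benjamini-Hochberg over all tested genes and a threshold of 0.05. The hippocampal fits omit Sample_1160, taken to be the outlying sample that the study left out without naming it, and their filter and scaling use all 18 libraries. The tissue difference and the control tissues were fitted jointly, so their fold changes use joint scaling.

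Members described in full were those called in an allele fit or in the test of the tissue difference. To these was added a member of each role that led it per kb in cerebellum, in hippocampus or in both. Gbp2 lay above Gbp3 in cerebellum, and Dtx3l above Parp9 in hippocampus. H2-D1, C4b, the members called between control tissues and genes of the other lists were named after their values were seen. Members and lists were chosen with earlier results of these data known. Alternatives were DESeq2 1.42.0, relative log expression scaling, no filter, legacy=FALSE, no sex term, genotype as a factor, a term for or restriction to animal numbers from Sample_1120 to Sample_1219, each animal left out, all 18 hippocampal libraries, and the animal as a replicate block. Leaving out Sample_933, Sample_936 and Sample_1433 together, leaving out Sample_1129 in the fit of sex, and leaving it out in combination with another setting were chosen after seeing the data. As a check of pairing, the libraries of an animal correlated between tissues over 13587 genes with a median Pearson's r of 0.194, and 14 of 17 animals lay above 0.1. Total counts per library set the depth. The fits were tested on simulated counts.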

Additional observations from a re-analysis of the deposited data

Results flagged for a closer look

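Of 78 groups of libraries looked at, for Pogz and the members described in full, 14 held a library far from the rest of its group, and chance does this in about 1 in 20 groups. Control Sample_1129 accounts for 9 of them in hippocampus, as the highest library for Ddx58 at 10.1 CPM (other controls 4.93 to 6.55), Stat2 at 45.6 (31.8 to 36.0), Ifit3 at 15.8 (3.82 to 6.16), Isg15 at 4.21 (1.25 to 2.09), Gbp3 at 10.7 (3.18 to 4.12), Ifitm3 at 13.99 (3.56 to 6.79), Parp9 at 6.58 (3.39 to 4.37), Ifi27 at 66.3 (24.9 to 34.2) and B2m at 115 CPM (60.3 to 77.4). The 9 values come from 1 library and are not independent of each other.

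In cerebellum Sample_1433 was the highest cKO+/- library for Ifit3 at 31.3 CPM (others 9.59 to 16.5) and for Mx2 at 2.94 CPM (0.341 to 1.19). Sample_1192 was the highest control for Isg15 at 3.61 CPM (1.28 to 2.13). For Pogz, Sample_1129 was the highest control at 130 CPM (89.6 to 101), and Sample_933 the lowest cKO+/- library at 66.4 CPM (77.3 to 81.5).

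Hippocampal Sample_1160, a cKO-/- library outside the fit, held more than the highest control for 10 of the 33 members tested there, beside 41.6% of all genes tested there. Of those described in full these are Isg15 at 4.21 CPM, a margin below the printed digits, Ifitm3 at 20.8 CPM against 13.99, Ifi27 at 151 CPM against 66.3, and B2m at 136 CPM against 115. The other 6 are H2-K1 at 52.1 CPM against 44.3, H2-D1 at 24.3 against 19.6, Psmb8 at 7.98 against 5.21, Psmb9 at 3.31 against 1.67, Ifi35 at 6.70 against 5.07, and Xaf1 at 5.03 CPM against 4.71. The cause was not tested.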

How the results depend on the processing

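The 2 calls per allele in cerebellum numbered 2 or 3 under DESeq2, relative log expression scaling, no filter, legacy=FALSE and without the sex term. The count was 1 for cKO-/- against control, where 1780 of 14027 genes were called, and 0 for cKO+/- against control, where 48 were. Within the animal-number range it was 0, where 238 of 13666 genes were called. Without Sample_933, Sample_936 and Sample_1433 it was 1, where 1428 of 13868 genes were called. With the term for the range it was 2, but of other members, where 308 of 14027 genes were called. With each animal left out it ran from 0 to 3. Apart from the fit within the range, 0 members passed in hippocampus under every alternative except DESeq2, with 1, and leaving out each animal gave 0 to 1. Of 14339 genes, 699 were called there for cKO-/- against control, 5 for cKO+/- against control and 68 with the term for the range. Within the range the only fitted cKO-/- library of hippocampus was Sample_1219, so that fit is not counted here. The tissue difference gave 0 under every alternative, 0 to 0 with each animal left out, and 0 with the animal as a replicate block. Of 13587 genes, 10 were called for it with the term for the range and 338 with the block. Between control tissues the 8 calls became 13 with the animal as a replicate block and ran from 7 to 16 with each animal left out. Sex gave 0 throughout. The causes were not tested, and the restricted fits also use fewer libraries.

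Over 1058 alternative values of the members described in full, 987 kept their sign; 24 lost a call, 11 gained one, 25 otherwise moved, and 0 called values reversed. Depth limits the members: 5 failed the filter in cerebellum and 7 in hippocampus, and a rise from such levels could go undetected here. The controls lie in 1 range of animal numbers, so with 7 mutant animals outside it genotype and numbering are in part confounded. Of the cKO-/- animals, Sample_1160 and Sample_1219 alone lie within that range.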

Other observations

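Among the members that failed the filter in hippocampus, Oas2 held 0.372 to 1.65 CPM in cKO+/- and 0.360 to 0.825 CPM in cKO-/- libraries, beside 0.369 to 1.81 CPM in controls. Among the other cKO-/- libraries of hippocampus H2-K1 reached 33.1 CPM and Psmb8 3.23 CPM. Leukocyte genes of blood summed to 2.11 to 8.49 CPM in cerebellum, and of that list only Ptprc passed the filter.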
